A study of Homo sapiens with 3 samples.

Results

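The genes near the end of the long arm of chromosome 3, from YEATS2 in band 3q27 to LMLN in band 3q29, were examined in the human melanoma line SK-Mel-28, an established cell line. They are the neighbours of MELTF, which encodes melanotransferrin (MTf), a membrane-anchored relative of transferrin that can bind iron, and which the study targeted. The list holds 58 genes of this stretch. It leaves out 27 other measured genes between YEATS2 and LMLN, among them MELTF, the transferrin receptor gene TFRC and the lipocalin gene APOD. It was selected on the difference between siRNA and scrambled signals, after a lower median of the genes nearest to MELTF had been seen on these same arrays, so every difference between siRNA and scrambled cells among the members is a description and supports nothing by itself. Cells had been stably transfected with a pSilencer 3.1-H1 neo vector that expresses either a hairpin siRNA against MTf (2 arrays, named B1 and B2 in the labels and called siRNA arrays 1 and 2 here) or a scrambled hairpin (1 array). Both groups thus carry the vector and its selection gene. The labels do not say whether B1 and B2 are separate clones, cultures or repeat hybridisations, so the p-values rest on the spread of this pair of arrays alone, and that spread may be technical.

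Chromosome bands hold genes of unrelated function, and the members share a position and no pathway. They include translation initiation factors, a splicing regulator, a cap-binding protein, enzymes of glycan and lipid synthesis, mitochondrial membrane proteins, kinases and the transcriptional repressor BCL6. The telomeric end, 3q29, is known for a recurrent human deletion that takes out one copy of genes such as PAK2, DLG1 and FBXO45. Gains of the distal long arm are frequent in squamous carcinomas.

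Total RNA was hybridised to Affymetrix U133 Plus 2.0 arrays, in which a probe set is a group of short probes summarised to 1 signal (a linear intensity). Of the 58 members, 56 had at least 1 probe set that the platform annotation gives to them alone, 155 probe sets in all. SENP2 and CLCN2 had none and were not analysed here. The filter kept probe sets whose mean log2(signal + 47.4) over the 3 arrays lay above the median of all probe sets, and 119 member probe sets from 54 genes passed it. EPHB3, a receptor tyrosine kinase gene, and EIF4A2, an RNA helicase gene of translation initiation, did not: the brighter EPHB3 probe set read 96.1 and 127.3 on the siRNA arrays against 48.6 on the scrambled array, and the EIF4A2 probe set 105.1 and 78.4 against 11.0. A further 2 probe sets name EIF4A2 together with small RNA genes and were not assigned. Across the genome 12386 genes passed, a gene being represented by whichever of its probe sets was brightest on average, and log2 differences are siRNA minus scrambled on the log2(signal + 47.4) scale.

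MELTF itself was measured by 4 probe sets. The brightest read 18968 and 18974 on the siRNA arrays against 32608 on the scrambled array, 58.2% of the scrambled signal (log2 difference -0.78 ± 0.17, SE; limma adjusted p = 0.0699). The second brightest read 10567 and 11199 against 8284 (log2 difference 0.39 ± 0.20, SE; adjusted p = 0.318). The probe sets of the targeted gene thus differed in direction and none passed the threshold. Of the 54 members past the filter, 17 had a log2 difference at least as low as that of the brightest MELTF probe set. Median signals over all probe sets were 174.3 and 199.5 on the siRNA arrays and 160.6 on the scrambled array, and the GAPDH 3' to 5' ratio lay between 1.01 and 1.03 on the 3 arrays. The ACTB ratio was 1.77 and 1.87 on the siRNA arrays against 2.00 on the scrambled array. Ribosomal RNA control probe sets were 4.01 times as bright on siRNA array 1 and 0.963 times as bright on siRNA array 2 as on the scrambled array. The melanocyte genes PMEL, MLANA, TYR, TYRP1, MITF, SOX10 and S100B read 5022 or more on each array, and their summed signal was 242062 and 265631 on the siRNA arrays against 289528 on the scrambled array. Among them the pigment enzyme gene TYRP1 was much dimmer on the siRNA arrays, at 5022 and 12370 against 53204. DCT had no probe set named for it alone. The leukocyte markers PTPRC, CD3E and CD14 read 170.7 or less on each array and summed to 179.9 and 191.2 against 274.3. The endothelial list summed to 345.1 and 546.9 against 445.4. In it PECAM1 was higher on the siRNA arrays (284.8 and 459.5 against 228.2) and VWF lower (50.2 and 72.4 against 207.0). CDH5 read 15.0 or less on each array. Of 6 fibroblast markers LUM was brighter on the siRNA arrays (4850 and 4841 against 598.6), COL3A1 and PDGFRB read 60.7 or less on every array, and the summed list was 5666 and 5883 against 1757. Without LUM the other 5 summed to 815.8 and 1042 against 1158: COL1A1 read 487.9 and 565.1 against 671.9, COL1A2 119.8 and 86.2 against 136.2, and DCN 139.9 and 301.3 against 256.0. The summed epithelial list was 2813 and 2538 against 1840. KRT18 gave most of that sum, and without it the list summed to 330.0 and 389.3 against 532.1. KRT8 read 207.6 and 297.1 against 483.2, and EPCAM and CDH1 read 87.1 or less on every array. The part of the ACTB ratio, the rRNA signal and these markers in the differences of the members was not tested.

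Several members lie head to head with a neighbour, so that a single stretch of DNA precedes both genes. Windows of 250 bases before to 50 after each start were taken from RefSeq (GRCh38.p14), where the table held 85 windows for 53 of the members. These 4 windows are shown because the paired genes share the sequence and can be compared in their difference. Each is the window of the second named gene, written 5' to 3' on the plus strand, on which that gene starts at base 251, and the first named gene starts on the opposite strand. Capitals mark matches, on either strand, to 7 short motifs, GGGCGG (the SP/KLF box), CCAAT (the box bound by NF-Y), CCGGAAG (the ETS core), the palindromic NRF1 core, CACGTG (an E-box), AAGATGG (the YY1 core) and TATAAA.
WDR53 and FBXO45: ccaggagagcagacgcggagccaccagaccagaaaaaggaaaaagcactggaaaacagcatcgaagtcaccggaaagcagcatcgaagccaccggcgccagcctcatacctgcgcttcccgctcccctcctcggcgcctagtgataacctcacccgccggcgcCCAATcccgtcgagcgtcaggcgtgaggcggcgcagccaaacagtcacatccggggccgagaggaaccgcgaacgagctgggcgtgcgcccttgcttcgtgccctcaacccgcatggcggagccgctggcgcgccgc
CEP19 and PIGX: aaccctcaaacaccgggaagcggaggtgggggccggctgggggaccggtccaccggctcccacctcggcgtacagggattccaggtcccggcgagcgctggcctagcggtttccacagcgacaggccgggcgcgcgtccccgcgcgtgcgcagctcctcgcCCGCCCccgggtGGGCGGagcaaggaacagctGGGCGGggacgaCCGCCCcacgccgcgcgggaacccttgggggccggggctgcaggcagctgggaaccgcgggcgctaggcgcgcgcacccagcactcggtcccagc
RUBCN and FYTTD1: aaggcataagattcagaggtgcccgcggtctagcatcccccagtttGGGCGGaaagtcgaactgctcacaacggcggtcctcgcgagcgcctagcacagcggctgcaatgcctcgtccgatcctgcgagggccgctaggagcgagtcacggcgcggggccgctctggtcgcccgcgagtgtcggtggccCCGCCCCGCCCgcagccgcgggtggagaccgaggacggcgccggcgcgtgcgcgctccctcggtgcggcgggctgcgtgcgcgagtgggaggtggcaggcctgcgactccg
IQCG and LMLN: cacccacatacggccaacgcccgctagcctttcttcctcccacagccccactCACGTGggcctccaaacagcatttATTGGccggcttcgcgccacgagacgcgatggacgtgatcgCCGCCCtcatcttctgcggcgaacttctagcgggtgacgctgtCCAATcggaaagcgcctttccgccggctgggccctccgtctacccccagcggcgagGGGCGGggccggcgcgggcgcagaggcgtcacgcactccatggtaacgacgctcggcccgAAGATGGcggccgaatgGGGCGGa

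The last 50 bases of each window lie past the start of the second named gene. In GRCh38.p14 the windows lie at chr3:196568410-196568709, chr3:196712127-196712426, chr3:197749633-197749932 and chr3:197959967-197960266. The starts of the paired genes are 106, 127, 63 and 226 bases apart. The WDR53 and FBXO45 window held 1 CCAAT match only, the CEP19 and PIGX window 4 GGGCGG matches and the RUBCN and FYTTD1 window 3, of which 2 overlap by 1 base. The IQCG and LMLN window held 7 matches, 3 of them GGGCGG, 2 CCAAT, 1 CACGTG and 1 AAGATGG.

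Most members were lower on both siRNA arrays. Of the 54, 46 had a log2 difference below 0 and 8 above it, where 42.5% of all measured genes were below 0. The median of the members was -0.57 (interquartile range -0.82 to -0.22), against 0.097 over all measured genes. It was -0.58 on siRNA array 1 and -0.56 on siRNA array 2. In linear signals the siRNA mean stood at a median of 67.2% of the scrambled signal, from 33.1% for LMLN to 229.4% for PIGZ, and 8 members were at 50% or less. The share of all genes at 50% or less was not counted, so nothing is read from the 8. Among them, XXYLT1 passed the filter only through its scrambled signal. Both siRNA arrays lay below the scrambled array for 43 members (32.5% of all genes do so) and both above it for 5 (46.7% of all genes). In bulk RNA, fewer cells with a transcript and less transcript per cell cannot be told apart.

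By limma, fitted across 27306 probe sets with adjustment over all of them, 5 of the 54 genes passed an adjusted p of 0.05, all lower in siRNA cells, where 1.14% of all genes were called lower, 1.5% higher and 2.64% in either direction. They were BCL6, LMLN, TRA2B, NCBP2 and IGF2BP2, with adjusted p between 0.0290 and 0.0493. By probe set 6 of 119 were called, all lower, where 0.905% of all probe sets were called lower, 1.19% higher and 2.09% in either direction, and the sixth was the second probe set of LSG1. At an unadjusted p under 0.05, 28 members were lower and 1, PIGZ, was higher, where 8.92% of all genes were lower and 14.0% higher. Since the list was drawn from this same contrast, nothing is read from these shares. The scrambled group has 1 array, and an exact relabelling of 1 array against 2 cannot give a p below 0.333, so no test over arrays was made of the members' median. In limma fits with no filter on dim probe sets, with a stricter one at the 75th percentile, or without the mean-variance trend, 0 members passed.

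**Figure D1:**
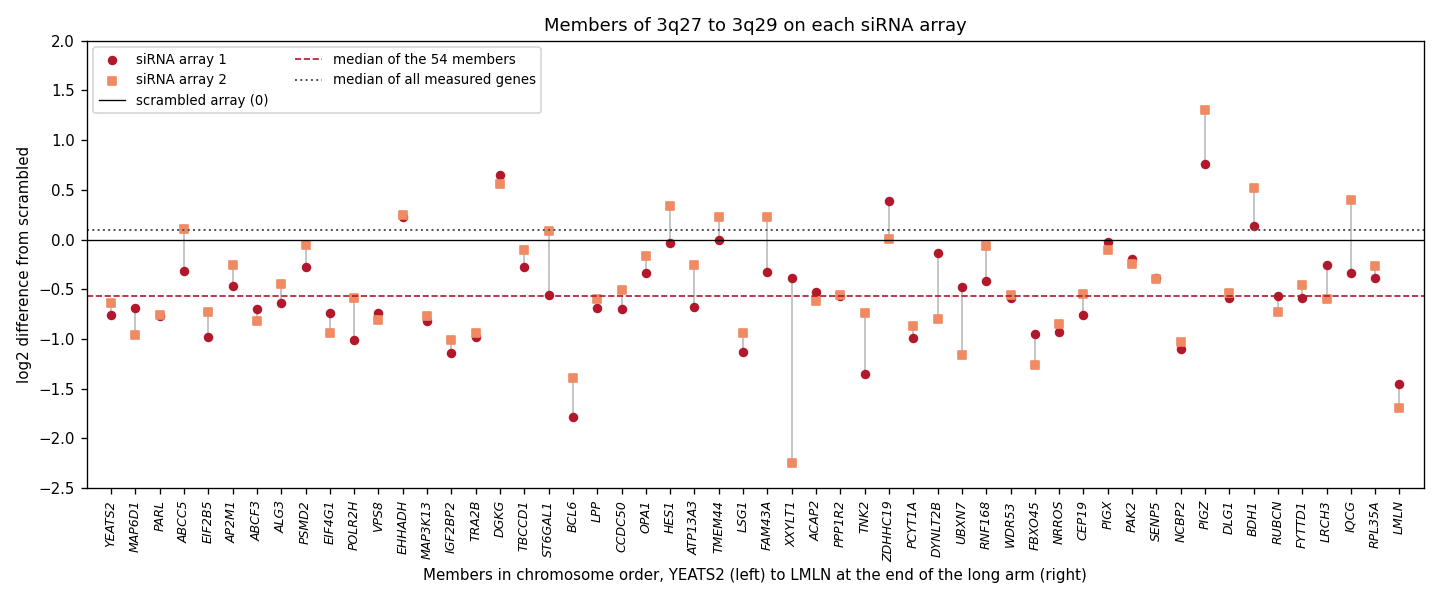
Log2 differences of the 54 members past the filter from the scrambled array (black line at 0) on siRNA array 1 (circles) and siRNA array 2 (squares), in chromosome order. The dashed line is the median of the members, -0.57, and the dotted line the median of all measured genes, 0.097; 43 members have both points below 0.

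Members for RNA synthesis and handling were low throughout, with 5 of 5 below 0 and a median log2 difference of -0.96. Since 46 of all 54 members were below 0, such counts by role say little about the role. NCBP2, the small subunit of the nuclear cap-binding complex, read 8055 and 8474 on the siRNA arrays against 17311 on the scrambled array (log2 difference -1.06 ± 0.19, SE). A second NCBP2 probe set read 4527 and 5793 against 9575. Both probe sets of the gene were lower on both siRNA arrays. TRA2B, a splicing regulator of the SR family and the brightest member of this group, read 20435 and 21053 against 40391 (-0.96 ± 0.17, SE). Its dimmer probe sets differed by -0.84 and -1.78. IGF2BP2, an RNA-binding protein that stabilises and transports mRNAs, read 5777 and 6352 against 12815 (-1.08 ± 0.20, SE). In the brightest probe sets of these genes the siRNA arrays differed from each other by little beside their distance from the scrambled array. The fit takes its spread from that gap, so a small gap favours a call and is no separate result. In the dimmest TRA2B probe set past the filter the arrays stood further apart, at -1.35 and -2.20. POLR2H, a subunit shared by the nuclear RNA polymerases, differed by -0.80, and FYTTD1, an mRNA export adaptor, by -0.52.

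Members for translation were also all below 0, with a median of -0.84 over 5 genes. By limma 0 of their brightest probe sets passed the threshold, and 4 had an unadjusted p under 0.05. At that cut 28 of the 54 members and 8.92% of all genes were lower. LSG1, a GTPase that releases the export adaptor from new large ribosomal subunits, read 3177 and 3620 against 6994 (-1.03 ± 0.23, SE). Its second probe set, at 3155 and 3174 against 7479, was the one past the threshold (-1.23 ± 0.22, SE). EIF2B5, the catalytic subunit of the exchange factor eIF2B, read 2184 and 2616 against 4355. EIF4G1, the scaffold of the cap-binding initiation complex, read 6583 and 5715 against 11037. In these probe sets the scrambled signal of both factors lay above both siRNA signals. A dimmer EIF4G1 probe set read 1932 and 1141 against 2011 (-0.42 ± 0.34, SE), with siRNA array 1 close to the scrambled array. ABCF3 differed by -0.76. RPL35A, a protein of the large ribosomal subunit, differed least (-0.33 ± 0.16, SE). Its brightest probe set is of a kind that can hybridise with related sequences, and ribosomal protein genes have many pseudogenes, so its value is uncertain.

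BCL6, a transcriptional repressor best known from germinal centre B cells, had the lowest log2 difference of all members. Its brightest probe set read 4299 and 5641 on the siRNA arrays against 14930 on the scrambled array (-1.59 ± 0.24, SE), and 2 dimmer ones differed by -0.96 and -0.98. YEATS2, a histone acylation reader of the ATAC acetyltransferase complex, differed by -0.70. HES1, a repressor downstream of Notch, read 1654 and 2162 against 1699, with siRNA array 1 just below and siRNA array 2 above the scrambled array. Its log2 difference of 0.15 became -0.013 with arrays centred on their medians.

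LMLN, a metalloprotease gene and the last measured gene of the chromosome, had the second lowest difference. It read 1622 and 1366 against 4509 (-1.57 ± 0.25, SE). The other 3 probe sets of LMLN past the filter differed by -1.37, -1.26 and -2.86, so all 4 were lower on both siRNA arrays. The one at -2.86 read 141.4 and 23.9 against 797.1. It passed the filter only through its scrambled signal, so it could only come out lower. The one at -1.26 read 194 and 138.6 against 461.5 and also needed its scrambled signal to pass. Among the other members for polarity and adhesion, NRROS, which anchors latent TGF-beta at the cell surface, read 1214 and 1282 against 2355 (-0.89 ± 0.25, SE). DLG1, a scaffold of cell polarity, read 4013 and 4172 against 6070, and the focal adhesion gene LPP 4373 and 4656 against 7086. The leucine-rich repeat gene LRCH3 differed by -0.43. All 5 members of this group were below 0, with a median of -0.65.

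**Figure D2:**
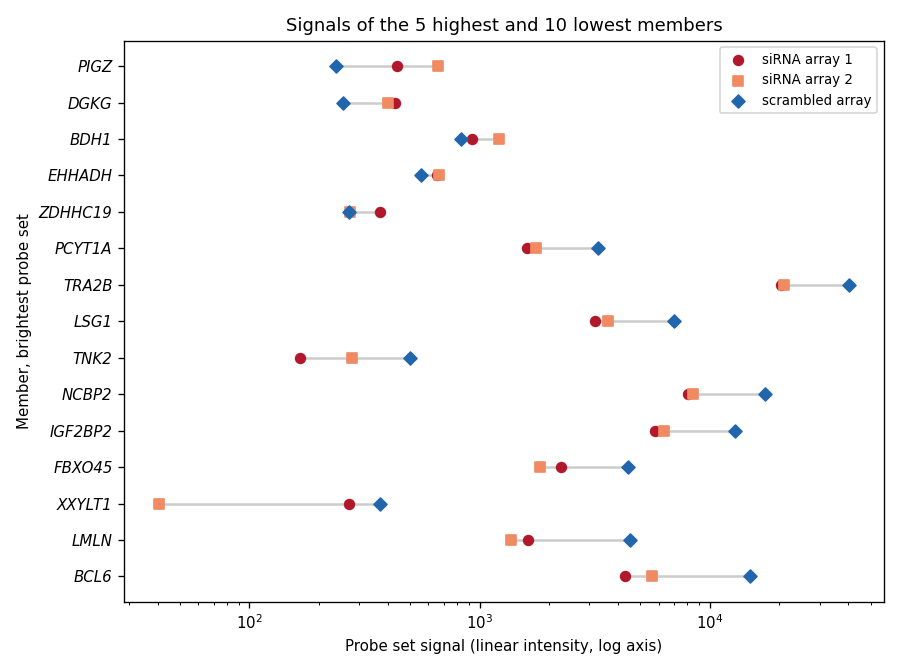
Signals of the brightest probe set on siRNA array 1 (circles), siRNA array 2 (squares) and the scrambled array (diamonds), on a log axis, for the 5 members with the highest and the 10 with the lowest log2 difference. BCL6 read 4299 and 5641 against 14930 and PIGZ 437.6 and 657.7 against 238.7.

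Of the members for ubiquitin, SUMO and the proteasome, 5 of 5 were below 0 with a median of -0.40. FBXO45, the substrate receptor of a ubiquitin ligase active in synapse formation, read 2269 and 1822 against 4429 (-1.10 ± 0.25, SE). UBXN7, an adaptor of the p97 segregase, differed by -0.82 and stood lower on siRNA array 2 (1301) than on siRNA array 1 (2127), against 2972 on the scrambled array. The SUMO protease gene SENP5 read 2492 and 2475 against 3281 (-0.40 ± 0.23, SE). RNF168, a ubiquitin ligase of the DNA damage response, differed by -0.24 and PSMD2, a proteasome subunit, by -0.16. On siRNA array 2 RNF168 read 2696 against 2817 and PSMD2 11390 against 11796 on the scrambled array.

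Membrane traffic and autophagy members (5 of 5 below 0, median -0.58) spanned a narrow range, from -0.77 for VPS8, a tethering subunit of early endosomes, to -0.36 for AP2M1, the clathrin adaptor subunit that binds cargo. ACAP2, a GTPase-activating protein for ARF6, read 6373 and 6000 against 9237. RUBCN, an inhibitor of autophagosome maturation, read 1846 and 1655 against 2766, and the endosomal transport ATPase gene ATP13A3 differed by -0.47. Signalling members had a median of -0.58 with 5 of 6 below 0. MAP3K13, a kinase upstream of JNK, read 7244 and 7495 against 12825 (-0.80 ± 0.20, SE), and a second probe set differed by -1.02. TNK2, a kinase activated by CDC42, was dimmer, at 165.9 and 279.6 against 498.5 (-1.05 ± 0.42, SE). PPP1R2, an inhibitor of protein phosphatase 1, read 4440 and 4474 against 6615. PAK2, a kinase activated by CDC42 and RAC, read 5090 and 4910 against 5831 (-0.22 ± 0.21, SE), and its other 4 probe sets past the filter differed by between -0.46 and -0.21. CCDC50, which binds ubiquitin chains, read 17062 and 19481 against 27686. DGKG, which phosphorylates diacylglycerol, was the member of this group above 0, at 427.7 and 399.7 against 255.9 (0.60 ± 0.35, SE).

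The members for glycans, GPI anchors and lipids lay on both sides of 0, with 5 of 9 below it and a median of -0.065. PIGZ, a mannosyltransferase that adds a side-branch mannose to GPI anchors, had the highest difference of all members, at 437.6 and 657.7 against 238.7 (1.03 ± 0.37, SE; not past the threshold). It is the nearest member to MELTF on its centromeric side. The ketone body enzyme gene BDH1 (924.1 and 1215 against 834.3) and the peroxisomal enzyme gene EHHADH (655.7 and 667.3 against 555.5) were above the scrambled array on both siRNA arrays. ZDHHC19, a palmitoyltransferase gene, read 369.9 and 272.5 against 271.1, and its difference of 0.20 became -0.0064 with quantile normalization. Others of the group were low. PCYT1A, which makes CDP-choline for phosphatidylcholine, read 1615 and 1764 against 3256 (-0.93 ± 0.24, SE), although 2 further probe sets differed by -0.080 and 0.33. ALG3, a mannosyltransferase of N-glycan assembly, differed by -0.54 and ST6GAL1, a sialyltransferase, read 6056 and 9490 against 8922 (-0.23 ± 0.29, SE), with siRNA array 2 above the scrambled array. XXYLT1, a xylosyltransferase that extends glycans on Notch, read 270.1 and 40.4 against 368.9. Its probe set passed the filter only through its scrambled signal, so it could only come out lower. The signal on siRNA array 2 lies below the highest signal of the control probe sets for the bacterial trp gene (97.2). With that level as a floor, the scrambled signal of XXYLT1 was at least 2.28 times the geometric mean of its siRNA signals. The log2 difference was -0.39 on siRNA array 1 and -2.25 on siRNA array 2, so the mean rests largely on siRNA array 2.

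Mitochondrial members went both ways. PARL, a protease of the inner membrane, read 10203 and 10274 against 17439 (-0.77 ± 0.19, SE), with its siRNA arrays almost equal. OPA1, which fuses inner membranes and is mutated in dominant optic atrophy, read 3862 and 4349 against 4890 in its brightest probe set (-0.25 ± 0.22, SE), and another differed by -0.94. BDH1, described above with the lipid enzymes, was the member above 0. Among cilium and microtubule members (4 of 5 below 0, median -0.47), MAP6D1 differed by -0.83 and CEP19, a centriole protein gene, by -0.65. DYNLT2B, a dynein light chain gene, differed by -0.47 and TBCCD1 by -0.19. IQCG, a motile cilium gene whose current symbol is DRC9, read 262.9 and 470.9 against 345.6, 1 siRNA array on each side of the scrambled array. The transporter gene ABCC5 read 2153 and 2896 against 2693 (-0.11 ± 0.27, SE), 1 siRNA array on each side, and a dimmer probe set of it differed by -0.98. TMEM44, a membrane protein gene, differed by 0.11, which became -0.052 with arrays centred on their medians. WDR53 differed by -0.57 and FAM43A by -0.054, with -0.33 on siRNA array 1 and 0.22 on siRNA array 2.

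**Figure D3:**
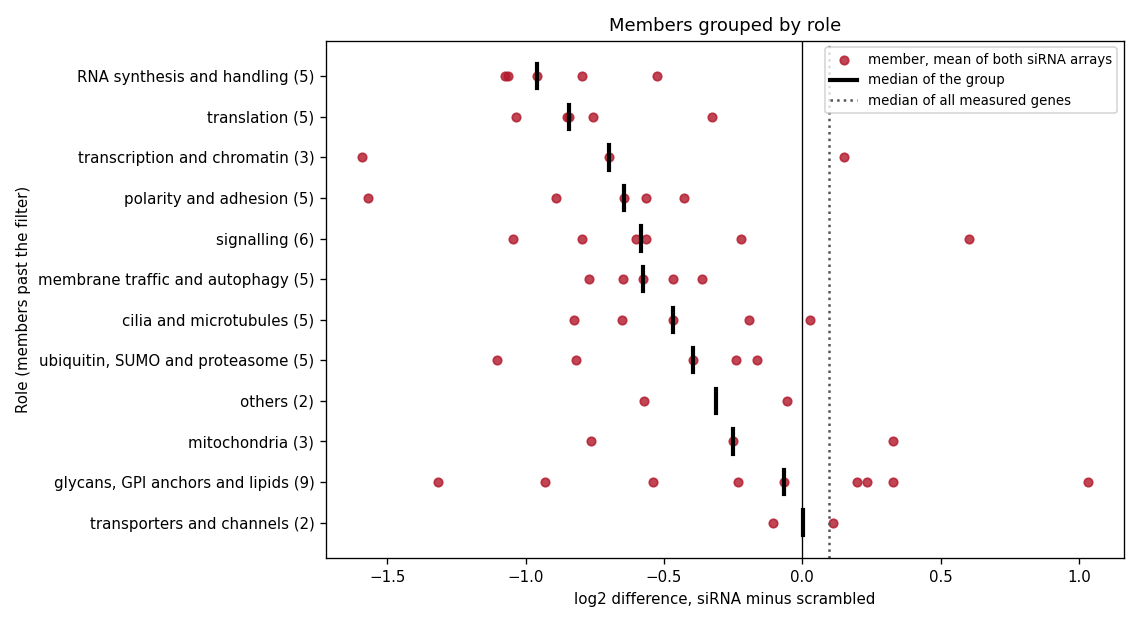
Log2 differences of the 54 members by role (points, mean of both siRNA arrays), with each group's median as a bar and the number of members past the filter in brackets. BDH1 stands in 2 groups; all 5 members for RNA synthesis and handling and all 5 for translation lie below 0, and 4 of the 9 for glycans, GPI anchors and lipids lie above it.

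Probe sets of the same gene mostly pointed the same way. Of the 33 members with at least 2 probe sets past the filter, 23 had all of them below 0, 0 had all above, and 10 had them on both sides of 0. These 10 were ABCC5, CCDC50, DLG1, HES1, LPP, OPA1, PCYT1A, PPP1R2, SENP5 and ST6GAL1. In CCDC50 the 3 brightest probe sets differed by -0.60, -0.75 and -0.74 and the 2 dimmer ones by 0.51 and 0.39. In LPP 6 of 7 were below 0. The dimmest of the 7, at 203.1 and 129.6 against 246, passed the filter only through its scrambled signal, so it could only come out lower. Over all 119 probe sets past the filter 84.9% were below 0, with a median of -0.47, against 41.8% and 0.11 over all probe sets. Among the 119, the filter let some probe sets of XXYLT1, LMLN and LPP come out only lower and that of TMEM44 only higher.

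Of the 8 members above 0, 7 were among the dimmest. When the 54 were split into 3 equal groups by their mean over the 3 arrays, a split chosen after the values were seen, 18 of 18 in the brightest group were below 0 (median -0.59, range -1.59 to -0.16). The middle group had 17 of 18 below 0 (median -0.65), HES1 being the exception. The dimmest group had 11 of 18 below 0 and a median of -0.31 (range -1.32 to 1.03). The lowest value there is that of XXYLT1, which could only come out lower. Genes outside the long arm of chromosome 3 with means in the same ranges had medians of -0.060, 0.071 and 0.19 from bright to dim, so the difference moved with brightness there as well. The gap between the siRNA arrays was 0.19 at the median for members and 0.23 for all genes, and siRNA array 1 was the lower one in 37 of 54 members. The gap was larger than the mean difference itself in 13 members.

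Members far from MELTF had a median as low as those beside it. The 29 members from YEATS2 to XXYLT1 had a median of -0.65 with 25 below 0, and the 25 from ACAP2 to LMLN, which lie nearer to MELTF, a median of -0.56 with 21 below 0. The other 27 measured genes between YEATS2 and LMLN, which are not on the list and include MELTF, had a median of -0.47 with 18 below 0. Just outside the centromeric end, KLHL24 read 2501 and 2254 against 2810 (-0.24 ± 0.24, SE), KLHL6 differed by -0.16 and SNHG33 by -0.47. No measured gene lies beyond LMLN.

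Along the whole chromosome, medians were below 0 through the long arm. The 288 measured genes from PROS1, taken as the start of the long arm, to KLHL24 had a median of -0.31 with 74.0% below 0. The 339 genes of the short arm had a median of 0.084 with 41.0% below 0, close to the other chromosomes together (0.11 and 41.5%). In bins of 40 measured genes in chromosome order, the first 7 bins had medians between 0.024 and 0.22. The eighth, which ends at FOXP1 on the short arm, was at -0.066. On the deposited scale, medians below 0 thus began within the short arm, and where the change lies was not tested. Centring arrays shifts all genes alike, so the bin at which medians pass 0 depends on the scaling. The ninth, from EIF4E3 to ZBTB11, was at -0.26 and spans the centromere, and the tenth to the fifteenth lay between -0.38 and -0.18. The last 3 bins, which hold the members, were at -0.41, -0.59 and -0.50. The bins and the arms were set after the values were seen, and genes are not replicates, so no test was made between them. By chromosome, the median of all of chromosome 3 (-0.13) was the second lowest of 23, between chromosome 21 (-0.14) and chromosome 9 (-0.086), and the highest was that of chromosome 13 (0.40).

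**Figure D4:**
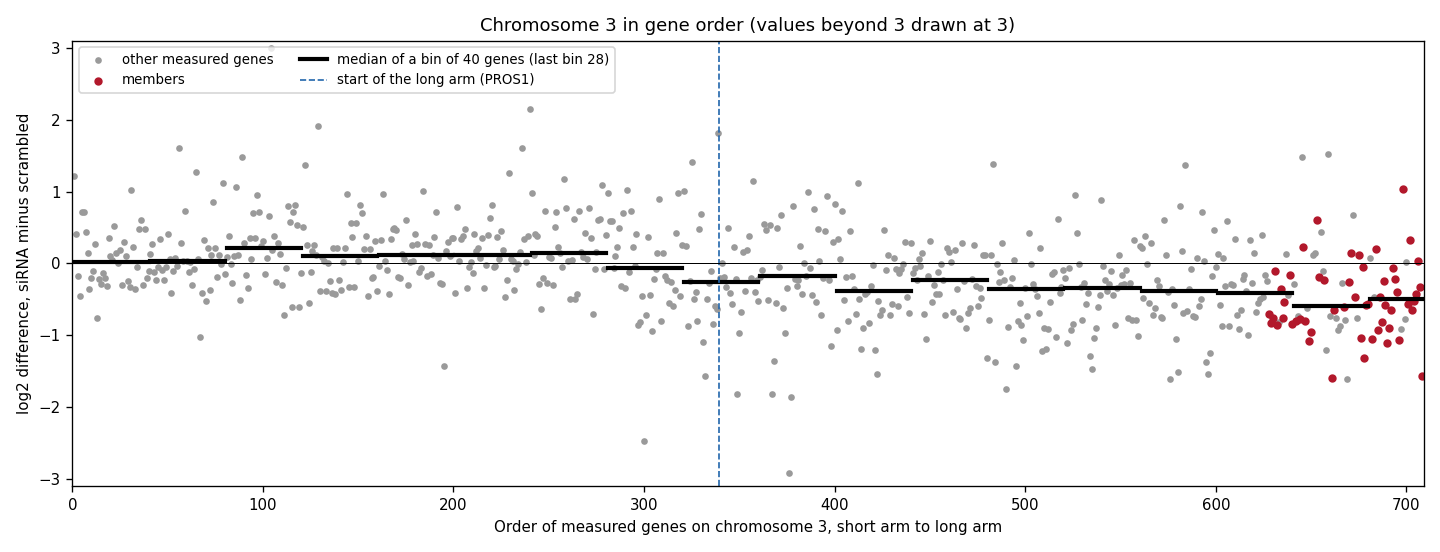
Log2 differences (siRNA minus scrambled) of the 708 measured genes of chromosome 3 in chromosome order, members in red, with the median of each bin of 40 genes as a black bar (28 genes in the last). Bin medians lie between 0.024 and 0.22 in the first 7 bins and between -0.59 and -0.41 in the last 3; the dashed line marks the start of the long arm.

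**Figure D5:**
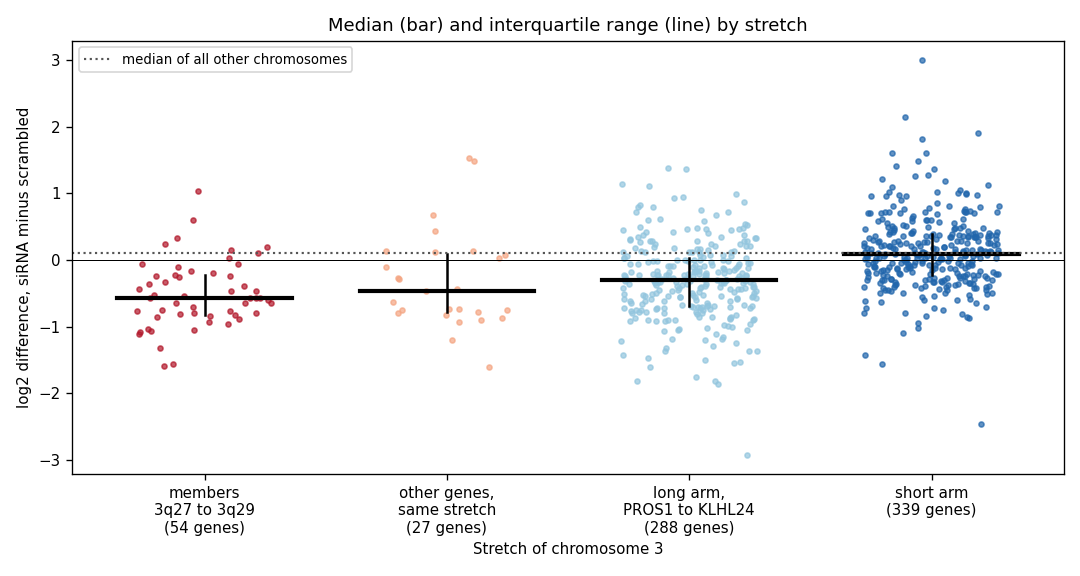
Log2 differences (siRNA minus scrambled) of the members, of the other genes of the same stretch, of the rest of the long arm and of the short arm, 1 point per gene, with medians of -0.57, -0.47, -0.31 and 0.084 as bars and interquartile ranges as lines. The dotted line is the median of all other chromosomes, 0.11.

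Scaling moved the level of all genes and of the members together. With arrays centred on their medians the members' median was -0.73 and that of all measured genes -0.067, and with quantile normalization they were -0.54 and 0.021. The members lay below the median of all genes by 0.67 on the log2 scale as deposited (difference -0.67) and by 0.56 (difference -0.56) with quantile normalization. Centring shifts all genes alike, so it left the difference the same by construction. The sign of the short arm's median turned with the scaling (-0.080 with arrays centred), whereas that of the long arm did not (-0.47).

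Paired genes were alike in some windows and far apart in others. WDR53 read 739.5 and 760.8 against 1138, and FBXO45 was lower still relative to its scrambled signal, at 2269 and 1822 against 4429. RUBCN (-0.65) and FYTTD1 (-0.52) stood close together, FYTTD1 at 9393 and 10283 against 14157. CEP19 read 691.6 and 808.8 against 1203, whereas PIGX, a subunit of the first GPI mannosyltransferase, read 2511 and 2363 against 2551 (-0.065 ± 0.24, SE), and its second probe set differed by -0.056. LMLN was among the lowest members at -1.57 while IQCG, dim and with its siRNA arrays on both sides of the scrambled array, stood at 0.029. A second RefSeq start of IQCG lies 265 bases from that of RPL35A, which differed by -0.33. The differences within pairs were not tested.

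Member promoters were rich in GC. Their windows had a median of 64.3% GC and 25 CpG dinucleotides, against 58.7% and 14 over all 35116 windows of the RefSeq table, which also covers noncoding genes. GGGCGG was present in 54 of 85 member windows (63.5%) and in 45.0% of all windows, AAGATGG in 10 (11.8%) and 5.84%, and the NRF1 core in 4 (4.71%) and 1.24%. CCAAT was present in 24 (28.2%) and 34.6%, CCGGAAG in 7 (8.24%) and 10.3%, CACGTG in 7 (8.24%) and 7.26%, and TATAAA in 7 (8.24%) and 11.5%. A match is a run of letters and not a bound site, several windows belong to 1 gene, and these shares were not tested.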

How the data were processed

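RNA of 3 SK-Mel-28 samples (2 MTf siRNA, 1 scrambled) was measured on Affymetrix U133 Plus 2.0 arrays. The authors deposited 1 linear intensity per probe set and array. GCOS 1.3 produced them, per the submitters' processing notes, and array means after trimming 2% at each end were 995.2 to 995.5, so the arrays had been brought to a common level. For the summary method and genome build, each was not given in the sources used here. The table held 54675 probe sets, of which 62 controls were left out. In the platform annotation 41091 of the others have 1 gene, 1801 have several and 11721 have none. Gene order came from RefSeq (GRCh38.p14), IQCG being matched by its synonym. The table had 0 value columns belonging to other samples.

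The scale of analysis was log2(signal + 47.4), the 25th percentile of all signals, which understates changes of dim probe sets. The 27306 probe sets with a mean above the median (7.74) were fitted with limma 3.58.1 in R 4.3.3 (eBayes with a trend) and adjusted by Benjamini-Hochberg at 0.05, two-sided. The fit has 1 residual degree of freedom, from the siRNA pair, plus 6.36 from moderation, with the single scrambled array taken to vary as the siRNA pair does. The number of arrays limits the precision. The method was tested on simulated data in which every array had the same fitted spread. That test could not check whether the scrambled array varies as the siRNA pair does. All members may be named, and those past the threshold, the 10 lowest, the 5 highest, those with probe sets of both signs, head-to-head pairs and the genes beside the ends are described. Alternatives were other scalings, pseudocounts, filters, moderation settings and probe set rules, and each siRNA array left out. Centring over all probe sets and the medians of chromosome arms and all genes were added after seeing the data. Members and lists were chosen with earlier results of these data known.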

Additional observations from a re-analysis of the deposited data

Results flagged for a closer look

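At the median of 3 probe sets, controls for ribosomal RNA were 4.01 times as bright on siRNA array 1 as on the scrambled array, a signal outside the measurement of the members. On siRNA array 2 the ratio was 0.963. Without siRNA array 1 the median log2 difference of the members was -0.56 and 43 of 54 were below 0, and without siRNA array 2 they were -0.58 and 49.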

How the results depend on the processing

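The members' median stayed below 0 and below that of all genes in every setting tried. The difference from all genes was -0.67 as deposited, -0.67 to -0.56 with other processing, and -0.69 and -0.64 without siRNA array 1 and siRNA array 2. Centring and the moderation settings could not change that difference, so they do not test it. With arrays centred on their medians over the tested probe sets, and over all probe sets (chosen after seeing the data), the members' median was -0.73 and -0.74. It was -0.54 with quantile normalization, -0.60 with the 75th percentile filter, and -0.47 with a gene's probe sets averaged. For ACAP2 to LMLN these were -0.73, -0.73, -0.51 with quantile normalization, -0.52 with the pseudocount at the 50th percentile and -0.47 averaged. For YEATS2 to XXYLT1 they were -0.81 and -0.82 when centred and -0.52 averaged. Leaving out 1 siRNA array gave -0.58 to -0.56 for all members, -0.55 to -0.53 for ACAP2 to LMLN and -0.69 to -0.59 for YEATS2 to XXYLT1. It also left no residual degree of freedom, so no calls could be made.

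Calls moved more. Against 6 member probe sets called as deposited, 12 and 22 were called in the centred fits and 3 with quantile normalization. Against 5 member genes, the counts were 8 and 13 centred, and 3 with quantile normalization or the pseudocount at the 50th percentile, which left out IGF2BP2 and NCBP2. By limma 0 probe sets and 0 genes were called without the filter, with the 75th percentile filter and without the trend, where 27, 25 and 19 members were lower and 2, 0 and 1 higher at an unadjusted p under 0.05. Over all genes 7.37%, 11.7% and 6.27% were lower there and 9.80%, 14.2% and 11.9% higher. The cause was not tested. Over all probe sets 571 were called as deposited, 722 and 1528 when centred, 357 with quantile normalization, 1 without the filter, 9 with the 75th percentile filter and 1 without the trend.

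Signs turned for the short arm's median (-0.080 and -0.086 centred, -0.0013 quantile), the median of all genes (-0.067 and -0.073 centred), ABCC5 (-0.32 to 0.10 with 1 siRNA array left out), FAM43A (-0.33 to 0.22 with 1 left out), TMEM44 (-0.052 and -0.058 centred, -0.052 quantile, -0.0014 to 0.23 with 1 left out), HES1 (-0.013 and -0.019 centred, -0.038 to 0.34 with 1 siRNA array left out), IQCG (-0.13 and -0.14 centred, -0.16 quantile, -0.34 to 0.40 with 1 left out), ST6GAL1 (0.12 averaged, -0.56 to 0.089 with 1 left out) and ZDHHC19 (-0.0064 quantile). No paired analysis was possible because the scrambled group has 1 array and its label carries no number shared with the siRNA arrays.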
